A study of Oryza sativa Japonica Group with 4 samples.

Results

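Rice genes of auxin response, conjugation and transport were compared between the lamina joints of the mutant ila1 and of its wild type. The members are genes whose symbol or RefSeq synonym is IAA, ARF, SAUR, PIN, GH3 or YUCCA followed by a number, with a leading Os dropped. Of the genes RefSeq lists, 71 matched, and 59 of them were paired with at least 1 probe set on the array, out of 17905 genes so paired. These 59 genes are read by 74 probe sets: 26 Aux/IAA genes, 17 auxin response factors (ARF), 9 GH3 genes, 5 PIN genes, SAUR39 and YUCCA1. The tables hold no gene descriptions, and the 23 genes named ARF were taken as auxin response factors because their names are those of the numbered rice ARF series. Where a name is shared by several genes, the gene is called by its number in that series (ARF16 is LOC9270361, not LOC4327785, which is called ARF1).

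The wild type was Zhonghua11 (ZH11, 2 arrays), a japonica cultivar, and the other group was the mutant ila1 (2 arrays), a plant with a wider leaf angle; as background, ILA1 is known to encode a Raf-like kinase of the MAPKKK type. Both were sampled at the tillering stage from the lamina joint, the hinge between leaf blade and sheath. The array was Affymetrix's for rice, and the deposited values are linear signals, 1 for each probe set (a group of short probes against 1 transcript) in each sample. Fold changes between genotypes were taken after adding 16 to the signals. Folds between the 2 arrays of 1 genotype are ratios of the signals as deposited. Replicates are labelled as biological, without the number of plants behind each, and the p-values speak only for the spread among these 4 samples. In tissue samples, fewer cells of a type and less RNA per cell cannot be told apart.

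Auxin is made from tryptophan by aminotransferases and YUCCA flavin monooxygenases, is moved between cells by PIN exporters, and is removed by GH3 enzymes that couple it to amino acids. Inside the nucleus, auxin triggers the breakdown of Aux/IAA proteins, which otherwise hold ARF transcription factors in check. The ARF proteins bind the promoters of early auxin genes, among them the SAUR, GH3 and Aux/IAA genes themselves. In the rice lamina joint, auxin is known as a hormone that acts on leaf angle together with brassinosteroid.

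More auxin genes fell than rose in ila1, and most did not pass the test. Of the 47 genes with a tested probe set, 14 fell, 2 rose and 31 did not pass, at a limma adjusted p under 0.05 over all tested probe sets. The falls comprised 7 ARF genes, 3 Aux/IAA genes, 2 GH3 genes and the only 2 PIN genes that could be tested, and the rises were IAA25 and SAUR39, the latter tested only because of its ila1 signals. The background over all 15633 tested genes, each taken by its probe set with the highest mean signal, was 12.6% lower and 5.67% higher (18.3% either way), against 29.8% and 4.26% of the auxin genes. Over all 34355 tested probe sets, 10.4% were lower and 4.71% higher (15.1% either way). That split, 3572 against 1619, moved with the scaling, to 2863 against 2925 after quantile normalization, 3066 against 2083 after median centring and 2393 against 3210 when hybridization controls set the scale. The share that fell was 43.8% of the tested ARF genes and 28.6% of the tested GH3 genes, while the 14.3% of Aux/IAA genes lay near the background. Tested members had a median log2 fold change of -0.25, where all tested genes had -0.02.

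None of these 16 calls held in the limma fit without ZH11 replicate 1 or without ZH11 replicate 2. Calls over the whole array fell to 22 and 114 in those fits, which take their spread from the ila1 pair, and all 16 genes kept their direction in each of them. Without ila1 replicate 1 or ila1 replicate 2 all 16 calls held and 10 or 19 were added, with the spread taken from the closer ZH11 pair.

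**Figure D1:**
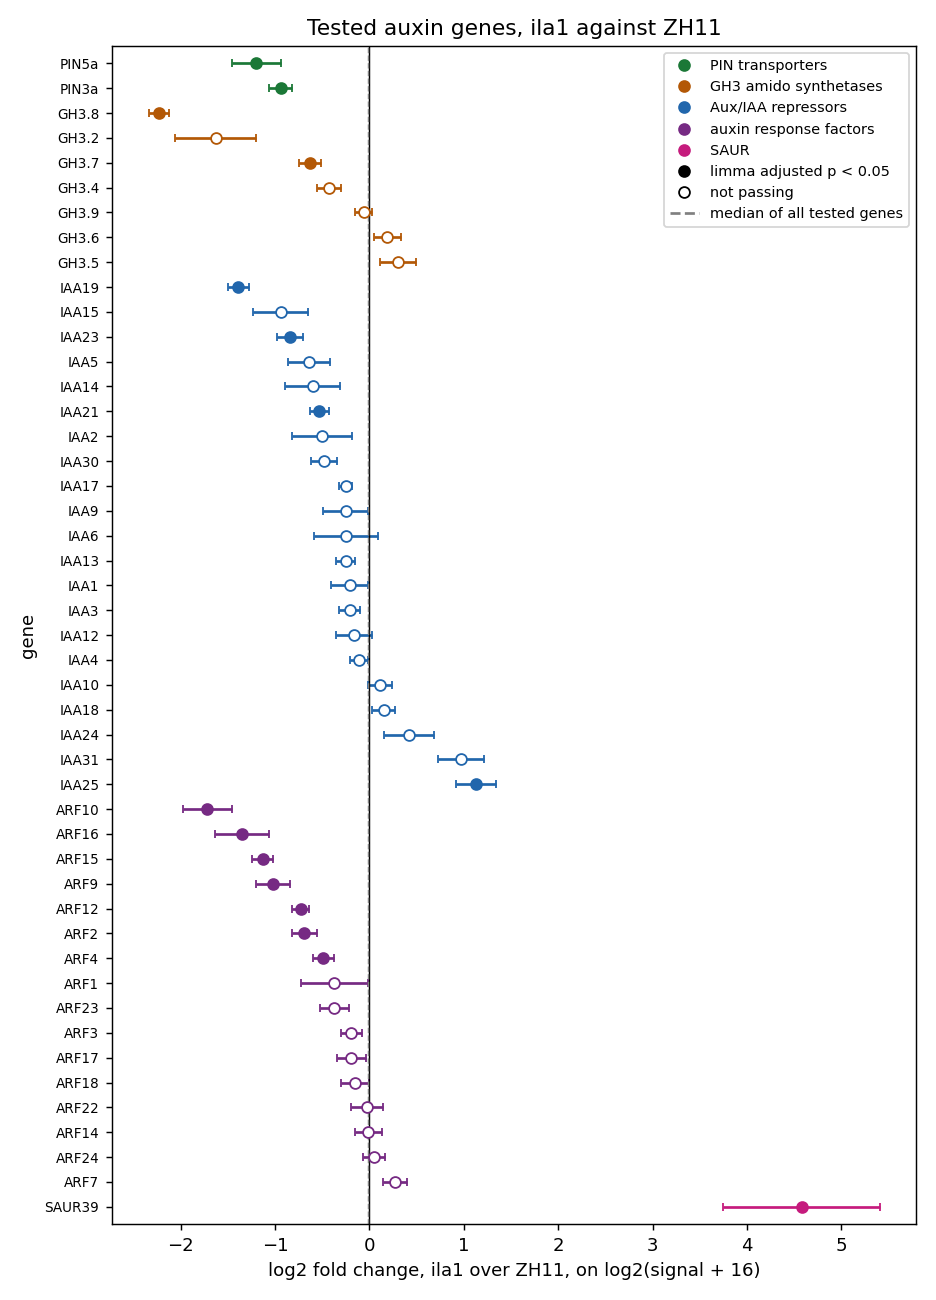
Log2 fold change of each of the 47 tested auxin genes, ila1 over ZH11, on log2(signal + 16), with bars of 1 standard error from limma, and filled points for genes with a limma adjusted p under 0.05. The values run from -2.23 for GH3.8 to 4.58 for SAUR39, and the dashed line marks the median of all tested genes, -0.02.

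The arrays had median signals of 56.0 and 57.9 in ZH11 and of 53.6 in both ila1 samples. Signals of the ZH11 arrays correlated at 0.995 across probe sets and those of the ila1 arrays at 0.983, on the log2 scale. Of 4 tested ligule and lamina joint markers 0 passed the limma test, with 1 at an unadjusted p under 0.05, and of 21 tested ribosomal protein genes 0 passed, with 3 at that p, all higher. For these and the marker lists below, the background was 18.3% passing over all 15633 tested genes, with 5833 at an unadjusted p under 0.05. The summed ribosomal signal was 68303 and 68750 in ZH11 and 73447 and 72331 in ila1. LG1, which sets the blade and sheath boundary, read 312 and 340 in ZH11 and 318 and 234 in ila1, while LG2 lay at 20.7 to 23.1 on all arrays, below the filter on low signals. The summed signal of 3 tested leaf photosynthesis genes was 19978 and 21361 in ZH11 and 14608 and 24867 in ila1, so the ila1 arrays differed from each other in this list; its part in the results was not tested. Summed signals were lower on both ila1 arrays for 13 tested secondary wall genes (5023 and 4851 in ZH11, 3473 and 3431 in ila1; 3 fell, 0 rose) and 5 tested epidermis genes (2367 and 2476 against 1792 and 1794; 2 fell, 0 rose). Genes within both lists went either way. Log2 fold changes ran from -1.63 (LAC19) to 1.08 (LAC10) for wall genes, with a median of -0.26. For epidermis genes they ran from -1.52 (ROC6) to 0.52 (ROC4), with a median of -0.17. Summed signals were higher on both ila1 arrays for 6 tested cell division genes (893 and 913 against 1283 and 1107; 1 rose, 0 fell). Their median log2 fold change was 0.02, with CYCA1-4 at 1.12, PCNA at 0.33 and the others between -0.15 and 0.03. Of 18 tested phloem genes 3 fell and 0 rose (summed signal 16292 and 16731 against 13179 and 14745). Phloem genes also went either way, from -1.79 (SUT4) to 1.70 (SWEET11, which read 66.4 and 1308 in ila1), with a median log2 fold change of -0.03. The parts of these lists in the results were not tested either.

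Of the genes of auxin synthesis, YUCCA1, the only YUCCA gene matched, lay between 10.6 and 22.9 on both of its probe sets in all samples, and neither was tested. For orientation, the lowest mean signal that was tested was 39.6. FIB, an aminotransferase of auxin synthesis, read 169 and 200 in ZH11 and 141 and 190 in ila1 (log2 fold change -0.15 ± 0.18 SE, limma adjusted p = 0.592), and its groups overlapped.

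Genes for anthranilate synthase, the enzyme that opens tryptophan synthesis and so precedes auxin, were lower for 2 of 4 members. Those 2 were named because they passed, and 12.6% of all 15633 tested genes were lower. ASB1, a beta subunit, gave signals of 5519 and 5595 in ZH11 and 1743 and 1289 in ila1, and fell 3.68-fold (log2 fold change -1.88 ± 0.16 SE, limma adjusted p = 0.00504). ASA2, an alpha subunit, fell from 787 and 840 to 330 and 418 (log2 fold change -1.10 ± 0.16 SE, limma adjusted p = 0.0161). The other 2 subunit genes, ASA1 and ASB2, had log2 fold changes of 0.00 and 0.09 and overlapping groups. TDC2, a tryptophan decarboxylase gene, read 167 and 166 in ZH11 and 252 and 214 in ila1 and did not pass (log2 fold change 0.45 ± 0.14 SE, limma adjusted p = 0.0928). NIT4, of the nitrilase family, read 618 and 521 against 685 and 909 and did not pass (log2 fold change 0.46 ± 0.19 SE, limma adjusted p = 0.155). For both genes the ila1 arrays lay above the ZH11 arrays.

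Both testable PIN genes fell. PIN3a (LOC4326565, also called PIN3t and PIN10a), an auxin efflux carrier, gave signals of 239 and 252 in ZH11 and 121 and 120 in ila1. This gene is read by a probe set that can also pick up similar sequences. Its ila1 arrays were nearly equal and lay below both ZH11 arrays, and it fell 1.92-fold (log2 fold change -0.94 ± 0.12 SE, limma adjusted p = 0.0121). A second tested probe set of PIN3a, of lower signal, read -0.42 ± 0.14 and did not pass (limma adjusted p = 0.109). PIN5a (LOC4324368), of the short PIN type that resides in the endoplasmic reticulum, read 435 and 442 in ZH11 and 138 and 237 in ila1, a 2.3-fold fall (log2 fold change -1.20 ± 0.26 SE, limma adjusted p = 0.0427). Its adjusted p was 0.0543 after quantile normalization and 0.0521 when scaled to hybridization controls. Signals of PIN2, PIN5c and PIN9 stayed between 8.53 and 44.5, below the filter. PIN1a, PIN1b, PIN1c and PIN5b had no paired probe set and were not analysed here.

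Among other transport genes, LAZY1 (LA1), which acts in shoot gravitropism and polar auxin transport, read 2061 and 2353 in ZH11 and 469 and 1092 in ila1. Both ila1 arrays lay below both ZH11 arrays, but 2.33-fold apart, and the difference did not pass (log2 fold change -1.60 ± 0.40 SE, limma adjusted p = 0.0604). PID, a kinase that steers PIN placement in Arabidopsis, read 102 and 103 against 78.8 and 98.9 and did not pass (limma adjusted p = 0.4). MDR17, an ABC transporter gene of the multidrug resistance type, fell from 780 and 1026 to 406 and 409 (log2 fold change -1.11 ± 0.17 SE, limma adjusted p = 0.0186).

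GH3.8 (LOC4343785), whose enzyme couples indole-3-acetic acid to amino acids, showed the largest fall of all 47 tested members. Its signals were 1117 and 1113 in ZH11 and 226 and 225 in ila1, so the arrays of each genotype were almost identical and the groups lay far apart. GH3.8 fell 4.69-fold (log2 fold change -2.23 ± 0.11 SE, limma adjusted p = 0.00238), and its estimate lay between -2.02 and -2.30 under every alternative run. GH3.7 (LOC4341111) read 284 and 269 in ZH11 and 177 and 171 in ila1, and fell 1.54-fold (log2 fold change -0.63 ± 0.12 SE, limma adjusted p = 0.0335), a call that ended when hybridization controls set the scale (limma adjusted p = 0.0879).

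GH3.2, also an auxin-conjugating enzyme, read 629 and 666 in ZH11 and 120 and 321 in ila1. Both ila1 arrays were below ZH11, but 2.66-fold apart from each other, and the difference did not pass (log2 fold change -1.63 ± 0.43 SE, limma adjusted p = 0.0692). Without ila1 replicate 1 its log2 fold change was -0.98, and without ila1 replicate 2 it was -2.28. GH3.4 read 108 and 111 against 69.5 and 85.7 (log2 fold change -0.43 ± 0.13 SE, limma adjusted p = 0.0945). GH3.5, which is the rice JAR1 gene and serves jasmonate instead of auxin, read 256 and 261 against 273 and 379, above ZH11 but not passing (limma adjusted p = 0.308). GH3.6 and GH3.9 had log2 fold changes of 0.19 and -0.06 and did not pass. GH3.1, the gene of the wide-leaf-angle mutant leaf inclination1, gave signals of 14.3 to 16.5 on all 4 arrays and, like GH3.11, was below the filter.

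Other ways of changing the auxin pool were read through conjugate hydrolases and the oxidase DAO. ILL2 and ILL6, members of the family that frees auxin from amino acid conjugates, fell from 110 and 165 to 40.6 and 31.4 and from 124 and 185 to 53.1 and 49.4. Their log2 fold changes were -1.54 ± 0.21 SE and -1.32 ± 0.20 SE (limma adjusted p = 0.0144 and 0.0181). The 3 other tested ILL genes did not pass, at log2 fold changes of -0.28, -0.10 and 0.08. DAO, a dioxygenase that oxidises auxin, read 938 and 814 in ZH11 and 316 and 664 in ila1 and did not pass (log2 fold change -0.91 ± 0.35 SE, limma adjusted p = 0.148). Of 20 tested auxin genes outside the named families, 5 fell and 0 rose in the limma test (6 and 1 at an unadjusted p under 0.05), at a median log2 fold change of -0.13. Over all 15633 tested genes, 12.6% fell and 5.67% rose, and 5833 had an unadjusted p under 0.05 in either direction. TPR3, a corepressor gene of the TOPLESS family, read 2725 and 2582 against 3056 and 2668 and did not pass (limma adjusted p = 0.525).

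**Figure D2:**
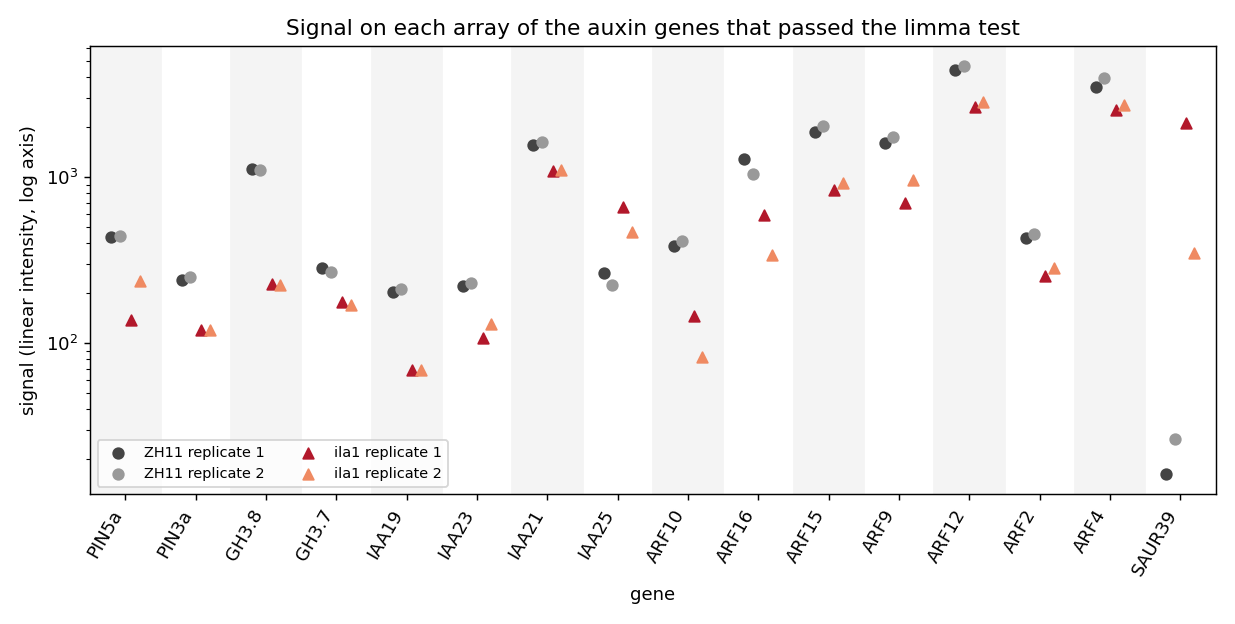
Signal on each of the 4 arrays, on a log axis, for the 16 auxin genes with a limma adjusted p under 0.05, grouped as PIN, GH3, Aux/IAA, ARF and SAUR genes. Both ila1 arrays (triangles) lie below both ZH11 arrays (circles) for 14 genes and above them for IAA25 and SAUR39, and the ila1 arrays are furthest apart for SAUR39, at 2135 and 351.

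Aux/IAA repressor genes went in both directions. Of 21 tested, 3 fell, 1 rose and 17 did not pass, with log2 fold changes from -1.39 to 1.13 and a median of -0.25. These shares, 14.3% lower and 4.76% higher, lay near the 12.6% and 5.67% of all 15633 tested genes. IAA19 (LOC4339588) had the largest fall of the family, from 205 and 211 in ZH11 to 69.3 and 69.2 in ila1, a 2.63-fold change with tight replicates in both genotypes (log2 fold change -1.39 ± 0.11 SE, limma adjusted p = 0.00447). IAA23 (LOC4341432), which is needed to keep the quiescent centre of rice roots, fell from 220 and 230 to 107 and 130 (log2 fold change -0.84 ± 0.14 SE, limma adjusted p = 0.0243). A second tested probe set of IAA23 also fell, by 0.68 on the log2 scale. IAA21 (LOC4340939) fell from 1553 and 1641 to 1096 and 1106 (log2 fold change -0.53 ± 0.10 SE, limma adjusted p = 0.034), and missed the threshold when scaled to hybridization controls (limma adjusted p = 0.111) and after quantile normalization (limma adjusted p = 0.119).

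IAA25 (LOC4344471) was the only Aux/IAA gene that rose, from 265 and 225 in ZH11 to 659 and 466 in ila1. Both ila1 arrays exceeded both ZH11 arrays, and the change was 2.19-fold (log2 fold change 1.13 ± 0.21 SE, limma adjusted p = 0.0294). IAA31 came next, at 556 and 454 in ZH11 and 811 and 1239 in ila1, and did not pass (log2 fold change 0.97 ± 0.24 SE, limma adjusted p = 0.0583). It passed when scaled to hybridization controls (limma adjusted p = 0.0323) or after quantile normalization (limma adjusted p = 0.0398). IAA30, the direct neighbour of IAA31 in the RefSeq gene order of assembly ASM3414082v1, lay on the other side of ZH11, with 2654 and 2578 against 1674 and 2097 in ila1 (log2 fold change -0.48 ± 0.14 SE, limma adjusted p = 0.0811). The difference between these neighbours was not tested.

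IAA17 and IAA13 were named for having the highest signals of the family. IAA17 read 8970 and 9138 in ZH11 and 7523 and 7652 in ila1, with groups well apart but a small log2 fold change of -0.25 ± 0.07 SE that did not pass (limma adjusted p = 0.0645). With arrays scaled to hybridization controls it read -0.04. IAA13, a gene in which stabilising mutations reduce lateral roots in rice, read 5178 and 4980 against 3951 and 4609 (log2 fold change -0.25 ± 0.10 SE, limma adjusted p = 0.167). The other 14 Aux/IAA genes that did not pass ranged from -0.94 for IAA15 to 0.42 for IAA24. IAA15 read 1051 and 1114 in ZH11 and 415 and 747 in ila1, so that both ila1 arrays were lower but far apart (log2 fold change -0.94 ± 0.29 SE, limma adjusted p = 0.0918).

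Every auxin response factor gene that passed the test fell. Of 16 tested ARF genes 7 fell, 0 rose and 9 did not pass in the limma test, with 7 lower and 0 higher at an unadjusted p under 0.05. Their log2 fold changes ranged from -1.72 to 0.27, and 14 of the 16 were below 0. Over all 15633 tested genes, 8066 were below 0, and 5833 had an unadjusted p under 0.05 in either direction. Signs moved with the scaling: of all tested members, 37 were below 0 as deposited and 27 when scaled to hybridization controls. ARF10 (LOC4336419), of the miR160-targeted type, had the largest fall of the ARF genes, from 388 and 415 in ZH11 to 146 and 82.7 in ila1 (3.3-fold, log2 fold change -1.72 ± 0.26 SE, limma adjusted p = 0.0183). ARF18 and ARF22 of the same type read -0.15 ± 0.15 and -0.03 ± 0.17 and had overlapping groups.

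The ETTIN-like genes ARF15 (LOC9268260, OsETTIN1) and ARF2 (LOC4325895, OsETTIN2), relatives of an Arabidopsis factor of organ polarity, both fell. ARF15 gave signals of 1883 and 2032 in ZH11 and 842 and 928 in ila1, with the groups clearly apart (2.19-fold, log2 fold change -1.13 ± 0.11 SE, limma adjusted p = 0.00699). ARF2 read 429 and 457 against 253 and 283 (log2 fold change -0.69 ± 0.13 SE, limma adjusted p = 0.031), and its second tested probe set fell by 0.72. The call of ARF2 ended with arrays scaled to hybridization controls (limma adjusted p = 0.0635). ARF3 and ARF14, which with the former pair carry sites for trans-acting siRNAs, had log2 fold changes of -0.19 and -0.01 and did not pass.

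ARF12 (LOC4337363), of the miR167-targeted activator type, read 4414 and 4657 in ZH11 and 2646 and 2819 in ila1 and fell 1.66-fold (log2 fold change -0.73 ± 0.09 SE, limma adjusted p = 0.0113). ARF17 of the same type read 2246 and 2272 against 1725 and 2260, which is 1 ila1 array lower and the other within the ZH11 range, and did not pass (log2 fold change -0.19 ± 0.15 SE, limma adjusted p = 0.414). ARF16 (LOC9270361), related to the Arabidopsis activators ARF7 and ARF19, fell from 1293 and 1050 to 593 and 339 (log2 fold change -1.35 ± 0.29 SE, limma adjusted p = 0.0428). Its adjusted p was 0.0695 when scaled to hybridization controls and 0.0595 after quantile normalization.

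ARF9 (LOC4335934) fell from 1605 and 1746 to 700 and 958 (2.02-fold, log2 fold change -1.02 ± 0.18 SE, limma adjusted p = 0.0267). ARF4 (LOC4326957) fell least of the called genes, from 3479 and 3950 to 2533 and 2734 (1.41-fold, log2 fold change -0.49 ± 0.11 SE, limma adjusted p = 0.0446), while its second tested probe set fell by 0.90. On the probe set of higher signal the call of ARF4 ended under median centring, quantile normalization, scaling to hybridization controls and a prior without trend, at limma adjusted p from 0.0567 to 0.14. ARF23 read 1124 and 1255 against 823 and 1014 and did not pass (log2 fold change -0.37 ± 0.15 SE, limma adjusted p = 0.154). ARF7 had the highest estimate of the family, from 527 and 601 to 668 and 692, and did not pass either (log2 fold change 0.27 ± 0.13 SE, limma adjusted p = 0.211).

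SAUR39, a gene whose product is described in rice as a negative regulator of auxin synthesis and transport, gave signals of 16.4 and 26.5 in ZH11 and 2135 and 351 in ila1. Both ila1 arrays were far above ZH11 but 6.08-fold apart from each other. The fitted log2 fold change was 4.58 ± 0.83 SE (limma adjusted p = 0.0289), 5.86 without ila1 replicate 2 and 3.31 without ila1 replicate 1. With 64 or 1 in place of 16 added to the signals it was 3.49 or 5.31, so no exact fold can be read from it. SAUR39 was the only tested member whose arrays of 1 genotype, ZH11, were all below the lowest tested mean signal, so it entered the test through ila1 alone, had to differ, and its call is a description. No other SAUR gene matched by name.

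Scaling of the arrays moved these values, and under quantile normalization by unlike amounts from gene to gene. The log2 fold change of PIN3a went from -0.94 as deposited to -0.87 under that scaling, and that of IAA30 from -0.48 to -0.21. All tested genes had a median of -0.02 (log2 fold change) as deposited, 0.05 after median centring, 0.13 after quantile normalization and 0.18 when scaled to hybridization controls. For the ARF genes the median was -0.37, -0.30, -0.21 and -0.17 in the same order. Relative to all tested genes it was -0.35, -0.35, -0.34 and -0.35. Median centring shifts all genes of an array alike on the log2 scale, so its value had to equal that as deposited. Scaling to hybridization controls applies a common factor to each array and could hardly differ either. Only quantile normalization could have changed the relative median materially. The Aux/IAA median, -0.25 as deposited and -0.04 with arrays scaled to hybridization controls, was -0.23 and -0.22 relative to all tested genes, and that of the GH3 genes was -0.41 and -0.43. After quantile normalization these relative medians were -0.24 for Aux/IAA and -0.48 for GH3 genes. The number of ARF genes that fell was 7 as deposited, 6 after median centring, 5 after quantile normalization and 4 when scaled to hybridization controls, and 0 rose in each of these limma fits. Of all 34355 tested probe sets, 3572, 3066, 2863 and 2393 were lower in the same order, and 1619, 2083, 2925 and 3210 were higher.

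**Figure D3:**
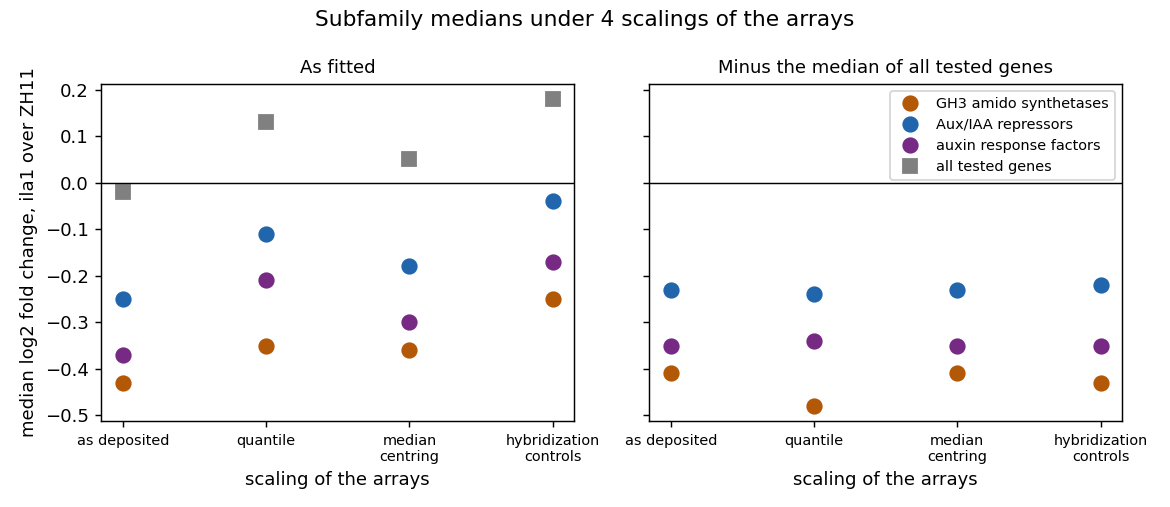
Median log2 fold change, ila1 over ZH11, of the tested GH3 (7), Aux/IAA (21) and ARF (16) genes under 4 scalings of the arrays, on the left as fitted with the median of all tested genes as squares, and on the right after subtracting that median. The ARF median runs from -0.37 to -0.17 on the left and from -0.35 to -0.34 on the right. On the right, values under median centring equal those as deposited by construction, and those under hybridization controls nearly do.

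The ila1 arrays differed from each other more than the ZH11 arrays did. Of the 47 tested members, 14 differed by more than 1.5-fold within ila1 and 1 did within ZH11, where 15.6% and 1.62% of all tested genes did. Among Aux/IAA genes, 8 of 21 differed by more than 1.5-fold between the ila1 arrays. IAA6, with 572 and 278 in ila1 against 476 and 483 in ZH11, and IAA2, with 344 and 665 against 638 and 737, were not placed consistently relative to ZH11. ARF1 read 348 and 165 in ila1 and 360 and 276 in ZH11, which overlap. Of all tested members, 32 were lower on ila1 replicate 1 than on ila1 replicate 2, where 47.1% of all tested genes were.

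**Figure D4:**
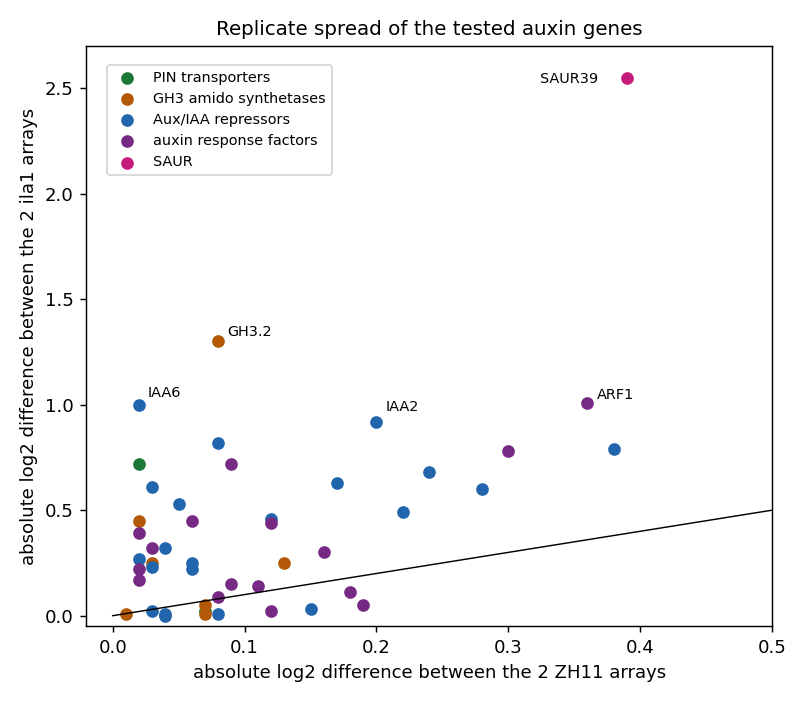
Absolute log2 difference between the 2 ila1 arrays against that between the 2 ZH11 arrays for each of the 47 tested auxin genes, with the line of equal differences. Most genes lie above the line, GH3.2, IAA6, IAA2, ARF1 and SAUR39 are labelled, and SAUR39 lies highest at 2.55.

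Counted without a test, 27 of the 47 tested members had both ila1 arrays below both ZH11 arrays, 7 had both above and 13 overlapped. Over all tested genes 35.6% lay below and 32.6% above. By family, the members lying below were 9 of 16 ARF genes, 11 of 21 Aux/IAA genes, 5 of 7 GH3 genes and 2 of 2 PIN genes.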

How the data were processed

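Intensity was deposited on a linear scale for 57381 probe sets in each of 4 samples. TRIzol extraction and biotin labelling of cRNA are recorded per the labels' protocols. What software and scaling produced the deposited intensity values is not given in the sources used here. Any scaling between arrays is therefore unknown, and 3 other scalings were run.

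After 123 control probe sets were left out, 16 was added and log2 taken, so fold changes between genotypes are understated, most for low signals. The dimmest 40% of probe sets, by mean log2 signal, were set aside, leaving 34355 to test. The test was limma 3.58.1 under R 4.3.3 (eBayes with trend after lmFit, two-sided, genotype as the only term), with Benjamini-Hochberg adjustment over all tested probe sets and a threshold of 0.05. The fit was also run on simulated arrays with the same spread in both genotypes, so that run does not speak for the wider spread within ila1. The number of arrays limits precision. Tables and plots used Python 3.11.15, pandas 2.3.3 and matplotlib 3.10.9.

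By the platform annotation, 22436 probe sets have 1 gene, 95 have several and 34850 stay unnamed. The RefSeq table of assembly ASM3414082v1, which holds all 17905 of these genes, gave names and gene order. A gene is given by its tested probe set of highest mean signal; 4 tested members (IAA17, IAA4, IAA23, PIN3a) are read by a probe set that Affymetrix marks as shared with similar sequences. Members and lists were chosen with earlier results of these data known. Named genes are all members that passed and, in each family, the 2 of highest signal and the 2 of smallest p among those that did not pass, with the other auxin genes that passed and the 2 of highest signal; others named with values were chosen after their values were seen. In the list of other auxin genes and markers, 7 genes whose synonyms show another gene of that name were removed. Alternatives were 2 other pseudocounts, no filter, 3 scalings, no trend, the mean of a gene's probe sets, a replicate block and leaving out each array.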

Additional observations from a re-analysis of the deposited data

How the results depend on the processing

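All 16 called members kept their direction under every alternative run. In the 8 alternatives that kept all 4 arrays and no block, 10 calls held throughout: ARF9, ARF10, ARF12, ARF15, GH3.8, IAA19, IAA23, IAA25, PIN3a and SAUR39. The call of SAUR39, which entered the main test through ila1 alone and had to differ, is a description here too. With arrays scaled to hybridization controls 8 members were lower instead of 14, and the medians were -0.25 for GH3, -0.04 for Aux/IAA and -0.17 for ARF genes. Over all 34355 tested probe sets, 2393 were lower under that scaling instead of 3572. After quantile normalization the ARF median was -0.21. Without the filter on low signals the PIN median was -0.20 over 5 genes instead of -1.07 over 2. Leaving out 1 array moved the number of members called higher between 0 (without ZH11 replicate 1 or ZH11 replicate 2) and 5 (without ila1 replicate 1), with 4 without ila1 replicate 2, and the number called lower between 0 and 31 (without ila1 replicate 2). The calls over the whole array moved between 22 and 14800. In each of these fits the lone array is assumed to vary like the other group, and the cause of the losses was not tested. Whether same-numbered arrays share more than a number is not given in the labels. Their deviations from the group means correlated at 0.103 across probe sets, which cannot settle it. With the replicate number as a block in the pairing, 4816 probe sets were called instead of 5191, 13 of the 16 calls held (not ARF4, GH3.7 and IAA21) and GH3.2 was added. With 2 arrays in each group, signals near the filter limit what can be read: 12 members with signals of 3.63 to 60.4 were not tested.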

Other observations

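Members below the filter were fitted in a limma run without it, and none passed. IAA8 came nearest, with signals of 25.6 and 16.1 in ZH11 and 60.4 and 40.2 in ila1 (log2 fold change 0.84 ± 0.19 SE, limma adjusted p = 0.0521), and its second probe set stayed between 3.63 and 5.92. ARF13 read 21.8 and 21.4 in ZH11 and 29.4 and 30.8 in ila1 (limma adjusted p = 0.0975), on the opposite side of ZH11 from the called ARF genes. IAA20 read 38.9 and 48.5 in ZH11 and 18.4 and 58.4 in ila1, so that its ila1 arrays lay on either side of ZH11.

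Among probe sets against reporters and vectors, 14 were tested and 6 of those were higher in ila1 by limma, with signals of at least 815 on the ila1 arrays and at most 207 on the ZH11 arrays. They are counted among the probe sets of the array and belong to no auxin gene.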
